A study of Mus musculus with 4 samples.

Results

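Growth hormone acts on the liver through its receptor Ghr, and the genes described here are the receptor, the kinase and transcription factors that carry its signal, genes that feed back on it, the repressor gene Bcl6 and a pair of major urinary protein (Mup) genes. Of the 10 genes named for this pathway (Ghr, Prlr, Jak2, Stat5a, Stat5b, Socs2, Cish, Bcl6, Mup3 and Mup10), 9 were each named alone by at least 1 probe set, 21 probe sets in all among 45037 on the array. No probe set of the annotation used named the prolactin receptor gene Prlr alone, and it is not analysed here. The genes were chosen by their role and with their values on these same 4 arrays in view, so their differences between groups are described below without a test. RNA came from whole livers of 4-week-old C57BL/6 mice, with 2 livers labelled Cnot3KO and 2 labelled Control (wild type) on 1 Affymetrix 3' expression array each. In the Cnot3KO livers floxed Cnot3, a subunit gene of the Ccr4-Not complex that shortens mRNA poly(A) tails, was deleted by Cre recombinase under the albumin promoter, which is active in hepatocytes, so that Kupffer, stellate and endothelial cells of these livers were not targeted. The study's methods drew controls from floxed mice without Cre and from Alb-cre mice with at least 1 intact Cnot3 allele, and do not say which of these genotypes the 2 Control livers had. The labels give no sex and do not say whether the livers came from different litters.

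Growth hormone binds Ghr on hepatocytes, the receptor-bound kinase Jak2 phosphorylates Stat5a and Stat5b, and these enter the nucleus and bind DNA. Socs2 and Cish are induced by this signal and dampen it. Pituitary release is pulsatile in male rodents and more continuous in females, and many mouse liver genes, the Mup genes among them, follow that pattern. Mup proteins are small lipocalins that the liver secretes and that carry pheromones in urine, and Bcl6 is a zinc finger repressor that growth hormone lowers in liver.

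The DNA motif bound by Stat5 proteins, TTCNNNGAA, was searched in promoter windows from RefSeq (build GRCm38.p6), each 300 bases long with 250 bases before an annotated start and 50 from the start on. The motif reads the same on both strands, and its letters are also found in sites of other Stat proteins and of Bcl6. It was present in 2726 of 32851 windows of all genes (8.30%), and 150 windows (0.457%) held at least 2 matches. Of the measured genes, 8 had a window and Socs2 had none in the table. These 8 genes had 12 windows, of which 3 held the motif, at the genes Cish and Bcl6. The Cish window held 2 matches in its first 20 transcribed bases, and 1 of the 2 Bcl6 windows held 3 matches, at positions -168 to -80 counted from the start. These runs are shown because they carry the matches, which are in capitals (Cish at chr9:107296654-107296683, plus strand; Bcl6 at chr16:23981353-23981461, minus strand).
Cish: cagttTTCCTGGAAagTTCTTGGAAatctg
Bcl6: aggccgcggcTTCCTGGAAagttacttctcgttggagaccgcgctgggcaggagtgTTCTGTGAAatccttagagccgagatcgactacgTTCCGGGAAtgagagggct
As given below, Cish was higher and Bcl6 lower in Cnot3KO livers. No match was found in the windows of Ghr, Jak2, Stat5a, Stat5b, Mup3 and Mup10, which says only that these letters are not in those windows.

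**Figure D1:**
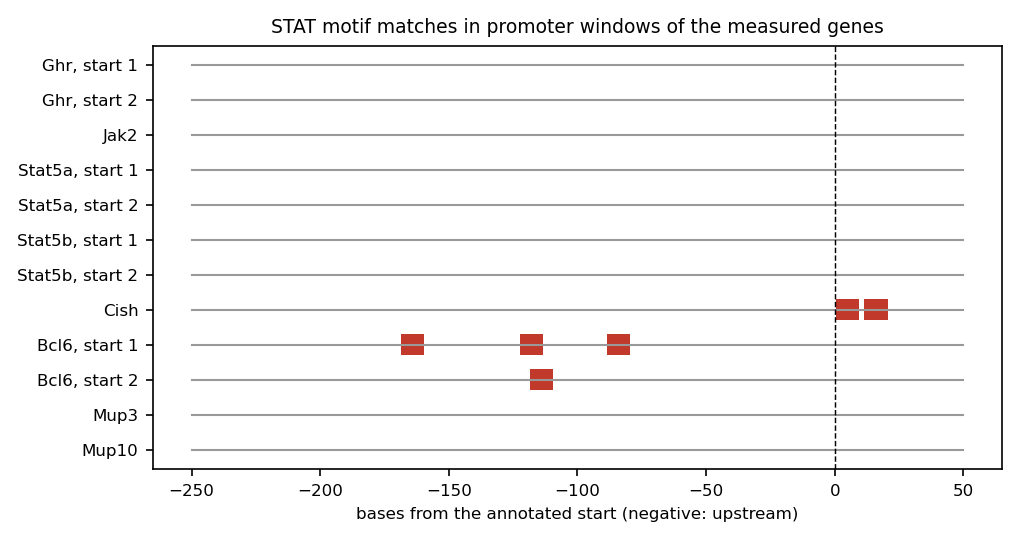
Position of each TTCNNNGAA match (red boxes, x axis in bases from the annotated start, negative upstream) in the 12 promoter windows of the measured genes (1 gray line each, y axis; a gene with 2 annotated starts has 2 lines, in order of coordinate). Matches are seen in the Cish window, where they lie just after the start, and in both Bcl6 windows, where they lie upstream.

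The reference table holds 22 Mup genes, all on chromosome 4, and a probe set that names Mup3 or Mup10 may also match copies of them. Upstream of Mup3 and Mup10 the longest run of identical bases was 29 bases. It is in capitals in the runs below, which are shown because both genes had large differences and share this sequence (Mup3 at chr4:62087371-62087464 and Mup10 at chr4:60582263-60582356, both minus strand).
Mup3: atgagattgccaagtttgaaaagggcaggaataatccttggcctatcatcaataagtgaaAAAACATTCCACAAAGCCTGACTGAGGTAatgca
Mup10: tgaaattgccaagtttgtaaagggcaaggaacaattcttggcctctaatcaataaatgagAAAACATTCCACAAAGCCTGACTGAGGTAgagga
When aligned with gaps, 82 of 95 columns of these runs (86.3%) were identical. Neither run holds the motif.

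Cnot3 itself, checked first, read 5.15 and 5.30 on the Cnot3KO arrays against 5.99 and 6.04 on the Control arrays (log2 RMA intensity, the robust multi-array average that the authors used to normalize and summarise probes). It fell by 0.79 ± 0.16 (SE; adjusted p = 0.0372 in limma; 1 of its 2 kept probe sets was called), and the call was lost when any of the 4 arrays was left out (-0.87 to -0.71; adjusted p = 0.0885 without Control replicate 2, 0.0955 without Control replicate 1, 0.127 without Cnot3KO replicate 2 and 0.211 without Cnot3KO replicate 1). Whether this probe set lies in the deleted part is not known here. In the paragraphs below, levels and differences are log2 values, each ± is the SE of a difference from the fit over all probe sets, and n = 2 arrays per group. Nothing in the labels shows that the 2 livers of a group were raised separately, so that p measures only the spread between these arrays.

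The marker lists showed how the arrays compare in sex and cell content. The Y-linked gene Eif2s3y read 7.34 and 7.57 in Cnot3KO against 7.90 and 7.73 in Control. Kdm5d, also Y-linked, read 5.01 and 4.95 in Cnot3KO against 5.08 and 5.18 in Control. Xist, which is transcribed from the inactive X chromosome of female cells, read 2.14 and 1.99 in Cnot3KO against 2.05 and 2.33 in Control, below the median of each array (3.09 to 3.14). All 4 arrays thus carried signal of Y-linked genes with low Xist. In their brightest probe sets Eif2s3y and Kdm5d were lower on both Cnot3KO arrays without overlap, as were 35.9% of all kept probe sets. Their differences of -0.36 ± 0.18 and -0.15 ± 0.16 did not pass (adjusted p = 0.237 and 0.549 in limma). Uty, the other Y-linked gene measured, overlapped between groups with a difference of 0.02 ± 0.23. The hepatocyte marker Alb, the albumin gene, read 13.74 and 13.79 in Cnot3KO against 13.84 and 13.73 in Control. For the counts that follow, 12.2% of all 16758 genes were called higher and 4.64% lower at an adjusted p under 0.05 in limma. Over 8 hepatocyte markers measured, the summed linear intensity was 56277 and 56100 in Cnot3KO against 52477 and 51185 in Control, and 1 marker, Apob, was called lower (-1.13 ± 0.21). Of 12 macrophage and Kupffer cell markers 6 were called higher, with sums of 5309 and 6044 in Cnot3KO against 3017 and 2879 in Control. Of 7 cholangiocyte markers 5 were called higher, with sums of 1001 and 756 in Cnot3KO against 59.4 and 51.2 in Control. Of 10 stellate cell markers 7 were called higher, with sums of 5972 and 4473 in Cnot3KO against 2270 and 1842 in Control. Sums were closer for sinusoidal endothelial markers (815 and 770 in Cnot3KO, 709 and 890 in Control) and for T, B and NK cell markers (102 and 126 in Cnot3KO, 114 and 103 in Control). Of 6 erythroid markers 3 were called lower, with sums of 508 and 1034 in Cnot3KO against 778 and 961 in Control. On the Cnot3KO arrays most of this sum came from Tfrc, which was not called (0.68 ± 0.43). The 3 called were Alas2 (-2.57 ± 0.34), Car1 (-2.17 ± 0.38) and Klf1 (-1.42 ± 0.31), and the sums do not show these falls. No marker is at 0 on this scale. In whole liver, fewer cells of a type and less RNA per cell cannot be told apart. The part of these markers in the results below was not tested.

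**Figure D2:**
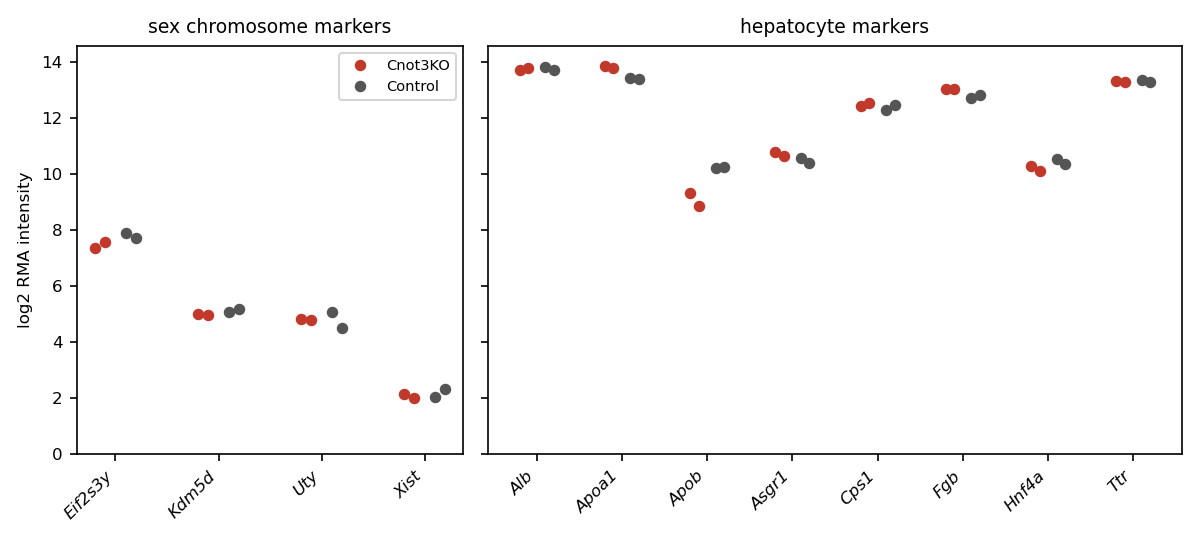
Log2 RMA intensity (y axis) of the measured sex chromosome markers (left) and hepatocyte markers (right), with the 2 Cnot3KO arrays (red) left of the 2 Control arrays (gray) for each gene. Eif2s3y lies between 7.34 and 7.90 on all 4 arrays and Xist between 1.99 and 2.33, whereas Apob is lower on both Cnot3KO arrays.

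Of the 21 probe sets, 20 passed the filter on low values, which kept a probe set if it exceeded its array's 20th percentile on 1 array or more. The 1 left out was a Socs2 probe set between 0.91 and 1.16 on all arrays. A probe set could pass through the group in which it was high, so the counts that follow are a description. Among the 20, 8 were over 2-fold lower in Cnot3KO and 1 was over 2-fold higher, whereas over all 38405 kept probe sets 4.41% were over 2-fold lower and 8.08% over 2-fold higher. In 10 the groups did not overlap with Cnot3KO lower and in 2 with Cnot3KO higher, against 35.9% and 26.9% of all kept probe sets. Since the genes were chosen with these values in view, nothing is read from these counts.

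The receptor was lower by every probe set. Ghr encodes both the membrane receptor and, by alternative splicing in mice, a soluble binding protein, and which probe set matches which form is not known here. Its probe set with the highest signal (1417962_s_at) read 8.92 and 9.27 in Cnot3KO against 11.14 and 11.11 in Control. The 2 arrays of each group lay close together and 1.84 separated the groups, for a difference of -2.03 ± 0.19 (4.09-fold lower). The probe set 1451501_a_at read 9.07 and 9.10 in Cnot3KO against 9.93 and 10.36 in Control, a difference of -1.06 ± 0.20 (2.09-fold lower). The probe set 1451871_a_at read 4.69 and 4.67 in Cnot3KO against 6.29 and 6.19 in Control, a difference of -1.56 ± 0.16 (2.95-fold lower). The groups did not overlap in any of the 3, while the size ranged from 2.09-fold to 4.09-fold. With 1 array left out the first difference stayed between -2.20 and -1.86. By Euclidean distance between centred values on 4 arrays, the genes with the profile nearest to Ghr were Pbld2 (distance 0.14), C8b (0.17) and Aldh5a1 (0.20). Of these C8b, a subunit gene of the terminal complement complex, read 7.97 and 8.43 in Cnot3KO against 10.14 and 10.33 in Control. With 4 arrays, likeness of profile says little beyond a similar difference.

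**Figure D3:**
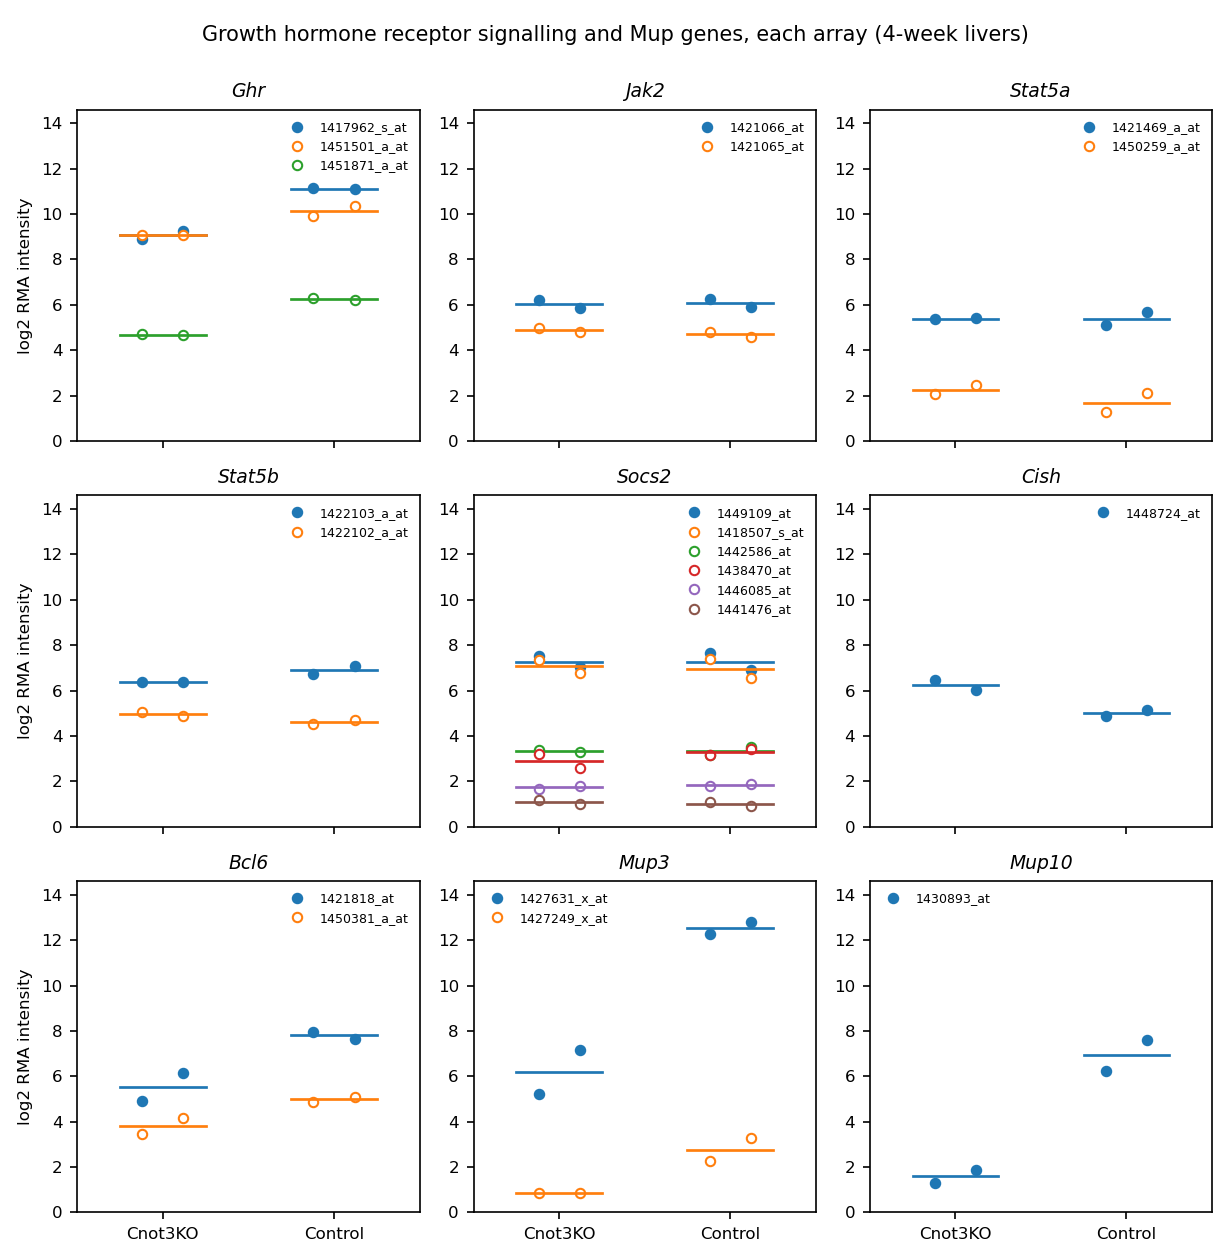
Log2 RMA intensity (y axis) on each array of every probe set of the 9 measured genes (colours, named in each panel), with the 2 Cnot3KO arrays left of the 2 Control arrays. Filled points are the probe set with the highest mean, open points the others and bars are means of 2 arrays. Ghr, Bcl6, Mup3 and Mup10 are lower in Cnot3KO by every probe set, Cish is higher, and Jak2 and the brightest Socs2 and Stat5a probe sets overlap.

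Of the kinase and the transcription factors, Jak2 and Stat5a overlapped between groups in every probe set and Stat5b in none. Jak2, the receptor-bound tyrosine kinase, read 6.19 and 5.86 in Cnot3KO against 6.27 and 5.91 in Control (1421066_at). Its difference was -0.06 ± 0.21 and the groups overlapped. The other Jak2 probe set (1421065_at) read 4.995 and 4.783 in Cnot3KO against 4.817 and 4.585 in Control, overlapping again with a difference of 0.19 ± 0.18. Stat5a read 5.37 and 5.41 in Cnot3KO against 5.13 and 5.67 in Control, with the Cnot3KO values between those of Control and a difference of 0.00 ± 0.23. Its other probe set (1450259_a_at) was in the low range, at 2.05 and 2.45 in Cnot3KO against 1.28 and 2.09 in Control, with a difference of 0.56 ± 0.32 and groups that overlapped. Stat5b, the form that predominates in liver, had probe sets that differed in sign. The brighter (1422103_a_at) read 6.36 and 6.36 in Cnot3KO against 6.72 and 7.07 in Control, a difference of -0.53 ± 0.19 (1.45-fold lower). The dimmer (1422102_a_at) read 5.06 and 4.86 in Cnot3KO against 4.53 and 4.68 in Control, a difference of 0.35 ± 0.17 (1.28-fold higher). The groups did not overlap in either, but 35.9% of all kept probe sets did not overlap with Cnot3KO lower and 26.9% with Cnot3KO higher. With quantile normalization again the dimmer probe set differed by 0.16. These arrays give no single direction for Stat5b mRNA.

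The feedback genes differed from each other. Socs2, which binds the phosphorylated receptor and limits its signal, read 7.50 and 7.02 in Cnot3KO against 7.65 and 6.91 in Control (1449109_at). The groups overlapped, and the difference of -0.02 ± 0.31 was smaller than the 0.75 between the 2 Control arrays. A second Socs2 probe set (1418507_s_at) read 7.35 and 6.79 in Cnot3KO against 7.38 and 6.56 in Control, with a difference of 0.10 ± 0.34. In both probe sets replicate 1 was the higher array in each group. The 3 other kept Socs2 probe sets were below 3.6 on all arrays and differed by -0.39 to -0.01. Cish, whose protein competes for receptor docking sites, read 6.46 and 6.01 in Cnot3KO against 4.89 and 5.12 in Control (1448724_at). Here both Cnot3KO arrays lay above both Control arrays by at least 0.89, a difference of 1.23 ± 0.22 (2.34-fold higher). Left-out arrays moved it between 1.01 and 1.45. Cish is also expressed in blood cells. In the marker lists given above, 6 of 12 macrophage and Kupffer cell markers were called higher and 3 of 6 erythroid markers lower. Of 10 T, B and NK cell markers 0 were called in limma (3 at an unadjusted p under 0.05, and 0 in the methods' t-test). Any part of these cells in the rise of Cish was not tested.

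Bcl6 was lower in Cnot3KO with a wide spread between its arrays. The brighter probe set (1421818_at) read 4.92 and 6.14 in Cnot3KO against 7.96 and 7.66 in Control. The Cnot3KO arrays differed by 1.21 from each other, and the groups were apart by 1.52. The difference was -2.28 ± 0.41 (4.85-fold lower), and it lay between -2.89 without Cnot3KO replicate 2 and -1.67 without Cnot3KO replicate 1. The other probe set (1450381_a_at) read 3.47 and 4.18 in Cnot3KO against 4.88 and 5.09 in Control, a difference of -1.16 ± 0.27 (2.23-fold lower). In both probe sets replicate 1 was the lower of the Cnot3KO arrays.

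The Mup genes had the largest differences of the 9. Mup3 read 5.22 and 7.17 in Cnot3KO against 12.28 and 12.80 in Control (1427631_x_at), a difference of -6.34 ± 0.63 (81.1-fold lower). Even the nearest arrays of the groups were 5.11 apart, although the Cnot3KO arrays differed by 1.95. Left-out arrays moved the difference between -7.32 and -5.37. The second Mup3 probe set (1427249_x_at) read 0.85 and 0.85 in Cnot3KO against 2.26 and 3.27 in Control. Both its Cnot3KO values were below the 20th percentile of their arrays, and its difference of -1.92 ± 0.34 shrank to -0.38 when 16 was added to the linear values before taking logs. Names of Mup3 probe sets end in _x_at, which marks probes that may also match other transcripts. Mup10 read 1.29 and 1.89 in Cnot3KO against 6.25 and 7.62 in Control (1430893_at), a difference of -5.34 ± 0.48 (40.6-fold lower). The Cnot3KO arrays lay near the floor of the array, 1 of them below its 20th percentile, and with 16 added the difference was -2.87, so the fold for Mup10 is imprecise. The 1 other Mup gene that a probe set named alone, Mup5, read 1.11 and 1.64 in Cnot3KO against 3.84 and 4.66 in Control. It was called lower (-2.88 ± 0.33; adjusted p = 0.00978 in limma), but its Cnot3KO values too lay near the floor, 1 of them below the 20th percentile of its array, so the size of this difference is imprecise. The genes with the profile nearest to Mup3 over the 4 arrays were Slc22a30 (distance 1.21), Ces1f (1.43) and Sult2a8 (1.44). Slc22a30, a gene of the organic ion transporter family, read 3.27 and 5.50 in Cnot3KO against 9.51 and 9.63 in Control.

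**Figure D4:**
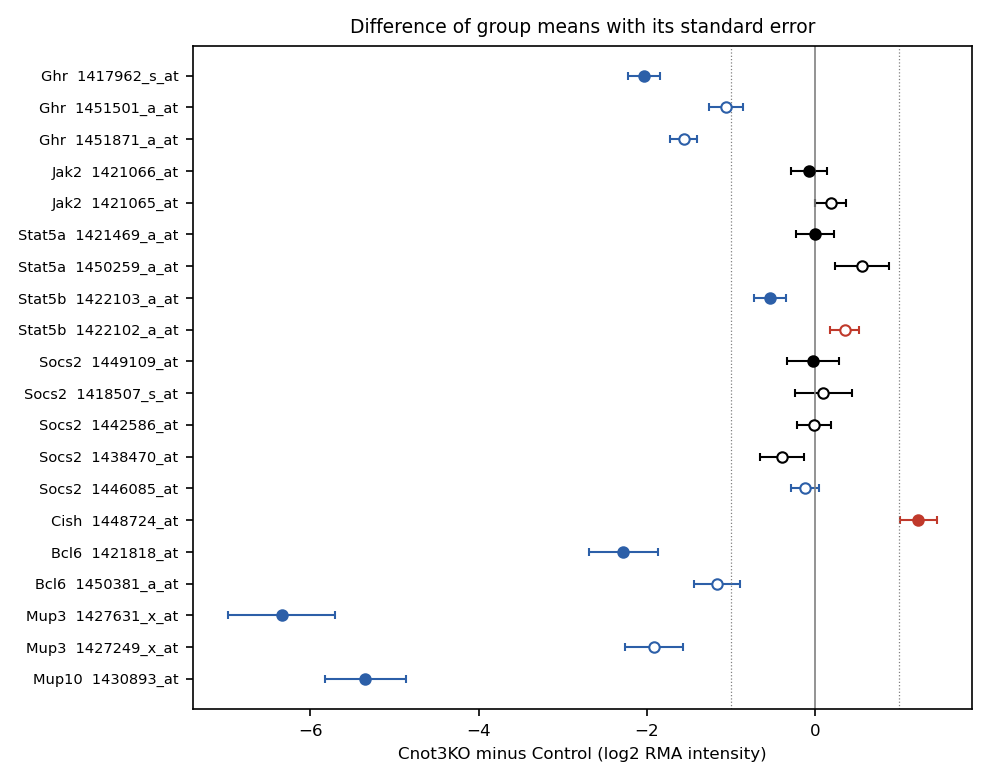
Difference of Cnot3KO minus Control means (x axis, log2 RMA intensity) with its standard error for the 20 kept probe sets (y axis). Blue and red points have no overlap between groups with Cnot3KO lower and higher, black points overlap, filled points are the brightest probe set of each gene and dotted lines mark a 2-fold difference. The differences run from -6.34 for Mup3 to 1.23 for Cish.

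Other genes of the pathway, none of them among the 10, were tested in lists. Of all 38405 kept probe sets 8.48% were called higher and 4.78% lower at an adjusted p under 0.05 in limma. Over all 16758 genes with 1 probe set each, 12.2% were called higher and 4.64% lower, and the median difference was 0.00. Of 15 signal transducers and adaptors 1 was called (6.67% of the list), the adaptor gene Grb2, which rose by 1.02 ± 0.17 (adjusted p = 0.0212). The median of the list was 0.21. The call of Grb2 was lost without either Cnot3KO array (adjusted p = 0.113 for replicate 1 and 0.0845 for replicate 2) and without Control replicate 1 (adjusted p = 0.0736). Averaging both Grb2 probe sets, of which 1 was called, gave a difference of 0.32 that did not pass (adjusted p = 0.180). Stat3 and Jak1, named after their values were seen, differed by 0.01 ± 0.30 and 0.78 ± 0.19 and did not pass (adjusted p = 0.981 and 0.0581 in limma). Of 17 negative regulators, which include the Socs family and tyrosine phosphatases, limma called 0 and the methods' t-test called 0 after adjustment. At an unadjusted p under 0.05, 5 were higher and 1 lower in limma, and 3 passed in the methods' t-test. The largest differences were 0.88 ± 0.22 for Socs5 (adjusted p = 0.0617) and 0.86 ± 0.22 for the phosphatase gene Ptpn6 (adjusted p = 0.0594), and the median was 0.26. Ptpn6 passed when both its probe sets were averaged (1.01; adjusted p = 0.0157) and by the one not ending in _x_at (1.16; adjusted p = 0.0165), and Socs5 without Control replicate 2 (1.13; adjusted p = 0.0487). With the mean of its 2 probe sets Socs5 differed by 0.56.

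Relatives of Ghr in the class I cytokine receptor family moved both ways. Of 13 measured, 2 fell and 3 rose, with a median of 0.45. Lifr, the leukaemia inhibitory factor receptor gene, read 6.45 and 6.75 in Cnot3KO against 9.68 and 10.07 in Control and fell by 3.28 ± 0.22 (adjusted p = 0.00422 in limma), as did its other 2 probe sets. The mean of the 3 probe sets differed by -2.06. Il6ra, which binds interleukin 6, fell by 1.81 ± 0.41 (adjusted p = 0.0472), and this call was lost without Cnot3KO replicate 2 (adjusted p = 0.123), either Control array (adjusted p = 0.145 for replicate 1 and 0.0561 for replicate 2). The leptin receptor gene Lepr read 6.69 and 5.66 in Cnot3KO against 4.08 and 2.21 in Control and rose by 3.03 ± 0.67 (adjusted p = 0.0432). Its call was lost without Cnot3KO replicate 1 (adjusted p = 0.118) and without Control replicate 2 (adjusted p = 0.0800), and left-out arrays moved the difference between 2.09 and 3.96. The mean of its 4 probe sets, of which 3 were called, differed by 1.73. Csf2ra and Csf2rb, which form receptors of myeloid growth factors, rose by 1.13 ± 0.19 and 0.89 ± 0.16 (adjusted p = 0.0224 and 0.0279 in limma). The mean of the 2 Csf2ra probe sets differed by 0.73. Csf2ra lost its call in all but the fit without Control replicate 1 (adjusted p = 0.0580 to 0.0923), and Csf2rb lost it without any of the 4 arrays (adjusted p = 0.0549 to 0.146). Of the 12 macrophage and Kupffer cell markers given above 6 were called higher on the same arrays, and their part in these 2 rises was not tested.

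Of 11 genes for proteins of the growth hormone axis in liver, 3 fell, with a median of -0.68. The list joins genes of different roles, so its median describes no single direction of the pathway. Positive differences, 2 in all, were those of Igfbp1 (1.33 ± 0.47; adjusted p = 0.129 in limma) and Igfbp2 (0.76 ± 0.42; adjusted p = 0.276), and neither passed. Egfr, the epidermal growth factor receptor gene, which growth hormone raises in mouse liver, read 7.23 and 7.34 in Cnot3KO against 10.11 and 10.61 in Control. It fell by 3.07 ± 0.22 (adjusted p = 0.00422 in limma), and 4 of its 6 kept probe sets were called lower. The mean of the 6 differed by -1.60. Igfbp3, which carries Igf1 in blood, fell by 1.55 ± 0.32 (adjusted p = 0.0379), and the transcription factor gene Cebpb fell by 0.89 ± 0.19 (adjusted p = 0.0378). Igfbp3 lost its call without Cnot3KO replicate 1 (adjusted p = 0.115), either Control array (adjusted p = 0.134 for replicate 1 and 0.0663 for replicate 2), and Cebpb without any of the 4 arrays (adjusted p = 0.0929 to 0.185). Igf1 and Igfals, named after their values were seen, are the growth factor made in liver under growth hormone and its carrier subunit. Igf1 read 10.46 and 10.78 in Cnot3KO against 10.92 and 11.28 in Control, and this difference of -0.48 ± 0.21 did not pass (adjusted p = 0.195), although 2 of its 4 probe sets were called lower. Igfals differed by -0.75 ± 0.33 and did not pass either. For Igf1 mRNA the study itself reported a decrease in livers without Cnot3, measured by quantitative PCR at several stages of development.

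Genes known to be higher in livers of male mice, a pattern set by pulses of growth hormone, had the lowest median of the 6 lists plotted by list and gene. Of 16 measured, 10 fell (62.5%, against 4.64% of all genes) and 2 had a positive difference that did not pass, and the median was -2.23. Hsd3b5, a steroid dehydrogenase gene, read 1.52 and 2.78 in Cnot3KO against 10.44 and 10.82 in Control and fell by 8.48 ± 0.43. Its value on Cnot3KO replicate 1 was below the 20th percentile of that array (1.54) and that on replicate 2 below the median (3.09), so the size of this fall is imprecise. Slco1a1, an organic anion transporter gene, read 3.21 and 3.08 in Cnot3KO against 9.82 and 9.63 in Control and fell by 6.58 ± 0.17. Ugt2b38, a glucuronosyltransferase gene, read 2.16 and 2.29 in Cnot3KO against 7.59 and 8.05 in Control and fell by 5.60 ± 0.21. Both Cnot3KO values of Ugt2b38 were below the median of their arrays (3.09), and those of Slco1a1 lay close to it. The sizes of these falls are thus imprecise too. Elovl3, a fatty acid elongase gene, read 3.71 and 3.37 in Cnot3KO against 7.54 and 10.73 in Control and fell by 5.59 ± 0.99. Adjusted p for these 4 was from 0.00106 to 0.0250 in limma, and Elovl3 lost its call without Cnot3KO replicate 1 (adjusted p = 0.0510). Its difference was -7.184 without Control replicate 1 and -4.001 without Control replicate 2. Falls of some of these genes on these arrays were known when the list was written, so its count is not independent evidence of its direction. All 4 arrays carried the Y-linked signal given above. All came from mice aged 4 weeks, so whether the sex pattern of liver genes was complete at that age cannot be told here.

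Of 17 measured genes known to be higher in livers of female mice, 4 rose (23.5%, against 12.2% of all genes), and the median was 0.10. Sult2a2, a sulfotransferase gene, read 9.21 and 10.93 in Cnot3KO against 2.06 and 1.98 in Control and rose by 8.05 ± 0.55. Both its Control values were below the median of their arrays (3.11 and 3.14), so the size of this rise is imprecise. Cyp17a1, a steroid hydroxylase gene, read 7.08 and 9.77 in Cnot3KO against 4.35 and 4.43 in Control and rose by 4.03 ± 0.83. The magnesium transporter gene Nipal1 rose by 2.44 ± 0.33 and the neurotrophin receptor gene Ntrk2 by 2.15 ± 0.21, although 1 of 6 Ntrk2 probe sets was called. With the mean of the 6 the Ntrk2 difference was 0.48 and the call was lost (adjusted p = 0.0955). Adjusted p for these 4 was from 0.00422 to 0.0368 in limma. The call of Cyp17a1 was lost without Control replicate 1 (adjusted p = 0.137) and without Control replicate 2 (adjusted p = 0.118). Its difference was 5.37 without Cnot3KO replicate 1 and 2.69 without Cnot3KO replicate 2. In this list the 2 Cnot3KO arrays had a median gap of 0.33 between them, against 1.21 between the 2 Control arrays. Its summed linear intensity was 972 on Control replicate 1 and 342 on Control replicate 2, against 1917 and 3811 in Cnot3KO. The male-biased list summed to 18829 on Control replicate 1 and 24670 on Control replicate 2, against 7260 and 7639 in Cnot3KO. The 2 Control livers thus differed from each other in sex-biased genes, most in the female-biased list.

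**Figure D5:**
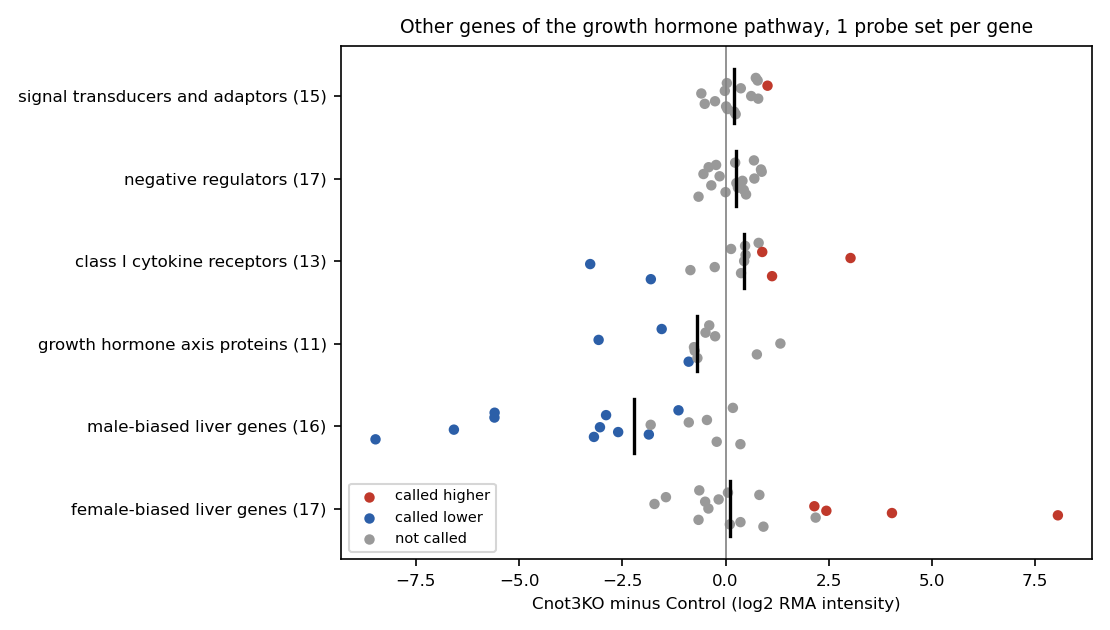
Difference of Cnot3KO minus Control means (x axis, log2 RMA intensity) of each measured gene in 6 lists (y axis, number of genes in parentheses), 1 probe set per gene. Red and blue points were called higher and lower at an adjusted p under 0.05 in limma, gray points were not called and black bars are list medians, from -2.23 for male-biased liver genes to 0.45 for class I cytokine receptors.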

How the data were processed

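RNA of 2 Cnot3KO and 2 Control livers was hybridized to 1 array each. The deposited values are intensities on the linear scale, from 1.27 to 16933, that the authors summarised by RMA (version and array set not given in the sources used here). They were turned to log2 with no constant. Through the platform annotation 34945 probe sets name 1 gene, 932 several and 9160 none. Of 45037 probe sets, 38405 passed the filter given above. In lists, a gene is its kept probe set with the highest mean.

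Groups were compared with lmFit and eBayes (limma 3.58.1, R 4.3.3; 2-sided, 5.40 degrees of freedom), and p was adjusted over all kept probe sets by Benjamini-Hochberg. The median SE was 0.192, and the number of arrays limits the precision. The fit was tested on simulated data, drawn with its own fitted spread and independent errors. That test cannot show how the fit performs where real arrays depart from this. The 10 genes and all lists were chosen with earlier results of these data known. The rule named all probe sets of the 10 genes, Cnot3, Alb, sex chromosome markers, up to 4 called genes per list and direction (the 2 largest differences where none was called) and the 3 profiles nearest to Ghr and to Mup3. Apob, Tfrc, Alas2, Car1, Klf1, Mup5, Stat3, Jak1, Igf1, Igfals, Igfbp1 and Igfbp2 were named after their values were seen. Figures were drawn with matplotlib 3.10.9 from tables made by pandas 2.3.3 (numpy 2.4.6, Python 3.11.15). Alternatives were 2 other filters, quantile normalization, centring on medians, a replicate block, a prior that follows intensity, the methods' t-test, the mean of a gene's kept probe sets, leaving out _x_at and _s_at probe sets, 16 added before logs and each array left out.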

Additional observations from a re-analysis of the deposited data

How the results depend on the processing

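Differences of the probe sets of Ghr, Cish, Bcl6, Mup3 and Mup10 kept their sign under renormalization, centring, 16 added to the values and each array left out, whereas those of both Jak2 probe sets, of 4 Socs2 probe sets and of the brighter Stat5a probe set changed sign under at least 1 of these. With the methods' t-test and adjustment, 0 probe sets were called higher and 1 lower over the whole array, and 0 genes in every list. The adjustment was added here, as the methods name none, and the study's own array counts used fold cut-offs. At an unadjusted p under 0.05 that test had 7837 probe sets and limma 11896. Among class I cytokine receptors 1 gene was called lower with no filter and with centring on array medians. Among negative regulators 2 were called higher with centring and with a mean above the 50th percentile, 1 with probe sets averaged per gene and with _x_at and _s_at probe sets left out, and 1 was called lower with quantile normalization again. That setting also called 1 female-biased gene lower. The replicate number as a block left 1 growth hormone axis gene called lower, and 2967 probe sets higher and 1716 lower over the whole array, against 3258 and 1837 without it, and Igfbp3 (adjusted p = 0.0716), Cebpb (adjusted p = 0.0590) and Cnot3 (adjusted p = 0.0517 in limma) lost their call among 20 genes named from the lists. The difference between replicates correlated at 0.232 between groups over probe sets, and nothing in the labels ties the numbers to shared litters. With 1 array left out, probe sets called over the whole array were 1194 to 1973 higher and 508 to 1394 lower. Calls by list were then 0 to 1 higher for signal transducers and adaptors, 0 to 1 higher for negative regulators, 0 to 2 higher and 1 to 2 lower for class I cytokine receptors, 1 to 2 lower for growth hormone axis proteins, 7 to 10 lower for male-biased genes, and 3 to 6 higher and 0 to 3 lower for female-biased genes. The lone array of a group is then assumed to vary like the others.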
